A study of Bos taurus with 8 samples.

Results

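The genes described here are 8 genes that dividing cells use to copy and separate their chromosomes: the replication genes PCNA, POLE2 and MCM2, and the mitotic genes CCNB2, BUB1, CDC20, TPX2 and TOP2A. They were chosen by name with array values of these same samples already known, because genes of this kind had log ratios away from 0 between the diets. Their diet and day values are therefore given as a description, with no test. Of the 8 genes, 6 had a feature on the array and 2, TOP2A and MCM2, had no feature named in the platform annotation used here. The 6 genes had 17 features, of which 13 gave a value on at least 6 of the 8 arrays and were averaged by gene. They are 6 of the 9781 genes measured under the same rule.

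Cells that are about to divide first load the MCM helicase on DNA, then copy it with polymerases held by the PCNA ring. They next build cyclin B for entry into mitosis, and the spindle and its checkpoint sort the chromosomes. Circulating neutrophils have left the cell cycle, and their precursors divide in the bone marrow. Replication and mitosis transcripts in a blood cell preparation are therefore commonly read as a sign of immature or activated cells, although lymphocytes and monocytes also carry them.

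The RNA came from PMNL, the polymorphonuclear leukocytes of blood, most of which are neutrophils. They were isolated from 8 Holstein cows, 4 fed each of 2 diets during a 45-day dry period and sampled at day -14 and day 7 around calving. The diets are labelled M and S. One was a wheat straw diet of 1.34 Mcal/kg that met 100% or more of the computed need for energy. The other was a corn silage diet of 1.62 Mcal/kg that exceeded 140% of that need, and the sources used here do not state which letter is which. After calving all cows ate the same lactation diet (1.69 Mcal/kg), so at day 7 the groups differed in what they had eaten before calving.

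The RNA was compared on 8 two-colour Agilent bovine arrays, 2 for each of 4 pairings, with the dyes exchanged within each pairing. At day -14, cow 7979 (diet M) was set against cow 7631 (diet S) on the first array and cow 7977 against cow 7472 on the second. At day 7, cow 7979 was set against cow 7944 on the first array and cow 7977 against cow 8041 on the second. The days were compared within cow 7821 and within cow 7973 in diet M. In diet S they were compared between different cows, 7631 at day 7 against 8041 at day -14, then 7472 at day 7 against 7944 at day -14. Each pairing thus rests on 2 arrays, which limits the precision. Each diet had 4 cows, but the diet M side of all 4 diet arrays came from cows 7979 and 7977. Cows 7821 and 7973 were set only against themselves, so their arrays compare days and not diets.

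All values below are log2 ratios after a correction for spot brightness within each array. Diet values are M minus S, so a value below 0 is lower in diet M. Day values are day 7 minus day -14. The sources do not state whether the deposited ratios are Cy5 over Cy3 or the opposite. They were read as Cy5 over Cy3 on every array, and if all were the opposite, every sign here turns over. A single direction on all 8 arrays is itself assumed, and a mixture would alter sizes and errors as well. An estimate with its standard error (SE) comes from 1 model over all 8 arrays, so the comparisons share arrays and are not independent of each other. Because RNA of bulk cell preparations was used, fewer dividing cells and less of a transcript per cell cannot be told apart.

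The arrays held 27679 to 32580 values each, and 25.6 to 36.8% of features were blank. The second day 7 array, with cow 8041, stood apart by its spread, an SD of 1.52 over all rows against 0.73 to 1.05 on the other 7. PMNL markers were bright (S100A12 at 37760, S100A8 at 9919 and CXCR1 at 186 intensity units), and so were the B cell genes CD79A at 804 and MS4A1 at 352. Over 15700 rows (genes, or features without a gene name), 0% passed an adjusted p of 0.05 in limma in each comparison: 0 for the diets at day -14, 0 for the diets at day 7, 0 for the days in diet M, 0 for the days in diet S and 0 for the interaction. At an unadjusted p under 0.05 there were 934, 3625, 497, 756 and 1009 rows in that order. None of the 6 genes passed in any comparison either.

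The spots of most of these genes were dim. Brightness is the geometric mean of the whole-number intensities of the 2 channels, recovered from the ratios in lowest terms, and is a lower bound. PCNA was read by 3 features with median brightness 292, 80.9 and 84.8. TPX2 was read by 3 features at 136, 52.9 and 32.4. CDC20 was read by 1 feature at 48.3 and CCNB2 by 1 at 31.9. POLE2 had features at 13.0 and 7.48, and BUB1 had 3 at 11.8, 5.54 and 4.53. Dim rows were noisier across the whole array. The median SE of the day 7 diet difference was 0.62 over 2994 rows under 16 units, 0.42 over 4208 rows from 16 to 64 units and 0.34 over 8498 rows at 64 units or more.

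**Figure D1:**
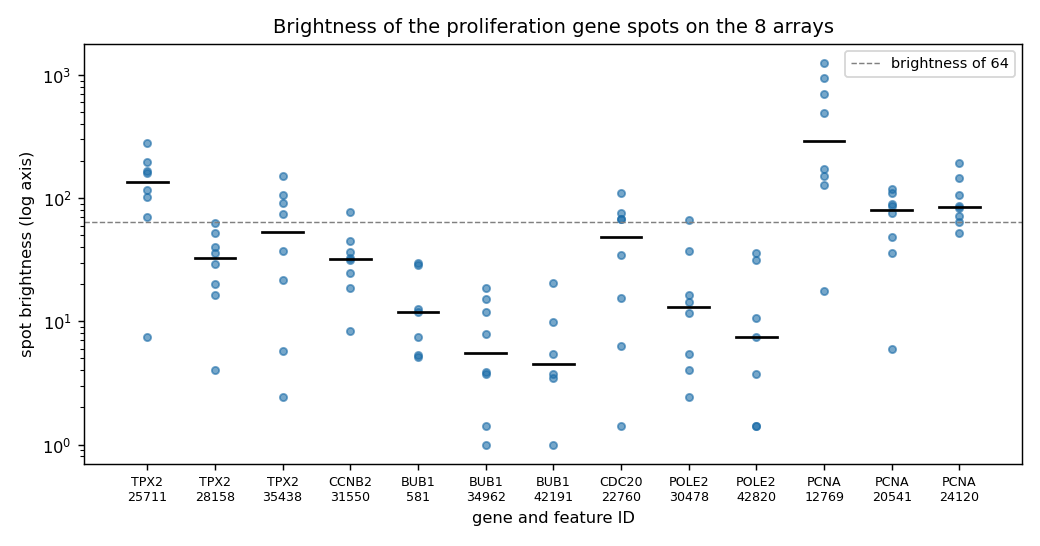
Brightness of the spots of each gene on the 8 arrays (log scale, intensity units, lower bounds), with each feature used in its own column. PCNA is the brightest gene, with a median up to 292, and the BUB1 features sit lowest, with medians of 4.53 to 11.8.

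Among the 5 genes other than PCNA, the log ratios between the diets lay mostly below 0, that is, lower in diet M. At day -14, 5 of the 6 genes were below 0 on both direct arrays, where 32.6% of all rows were. At day 7, 4 of the 6 were below 0 on both, where 28.2% of all rows were. TPX2, CCNB2, BUB1 and POLE2, 4 of the 6, were below 0 on all 4 diet arrays, as were 17.7% of all rows. The 4 diet arrays share the same diet M cows, 7979 and 7977. Since the genes were also chosen with these contrasts known, nothing is read from these counts. The median over the 6 genes was -0.83 at day -14 and -1.15 at day 7, with medians over all rows of -0.02 and 0.01.

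**Figure D2:**
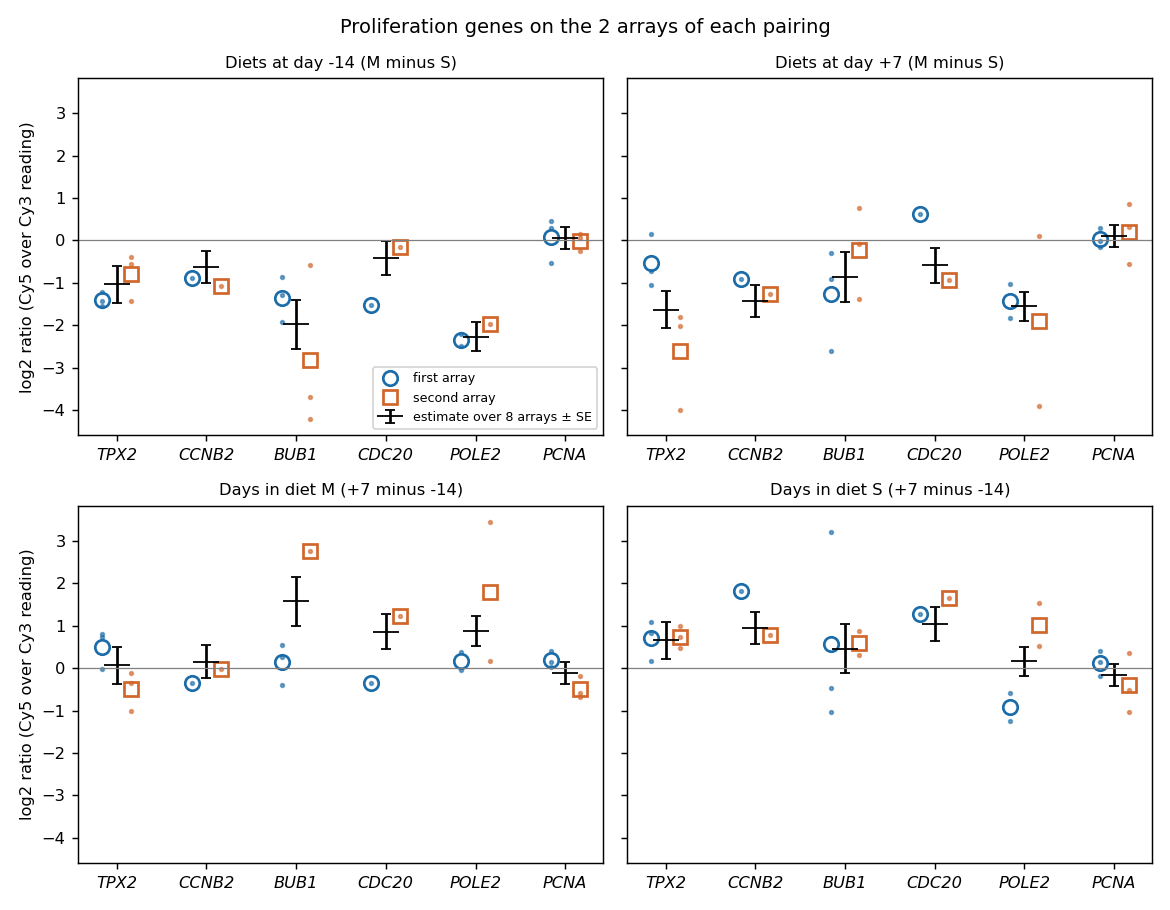
Log2 ratio of each gene on the 2 arrays of each pairing (points), with the model estimate and its SE over the 8 arrays. For the diets, TPX2, CCNB2, BUB1 and POLE2 lie below 0 on all 4 arrays, while PCNA stays between -0.01 and 0.21.

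POLE2 encodes the accessory subunit of DNA polymerase epsilon, the enzyme known for copying the leading strand. On the day -14 diet arrays it was at -2.34 and -1.98, and on the day 7 diet arrays at -1.43 and -1.90. All 4 values are below 0 and the 2 arrays of each day lie close together. The estimates were -2.27 ± 0.34 at day -14, a 4.81-fold lower level in diet M, and -1.56 ± 0.34 at day 7, 2.94-fold lower. Without the second day 7 array the day 7 estimate was -1.71, and without both arrays of cow 8041 it was -1.84.

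The day values of POLE2 were mixed. In diet M they were 0.17 and 1.80, and in diet S -0.92 and 1.03. The value of 1.80 was 0.34 as deposited, so most of it was added by the brightness correction on that array. The arrays of diet S point in opposite directions, and the estimates were 0.88 ± 0.34 in diet M and 0.16 ± 0.34 in diet S. The interaction, the day difference in M minus that in S, was 0.71 ± 0.40.

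The closeness of the POLE2 averages hides a disagreement between its features. Feature 30478 was at -3.91 and feature 42820 at 0.12 on the second day 7 diet array. These came from recovered whole numbers of 1 over 16 and 7 over 8. On the second array of diet M the same features were at 0.16 and 3.44. Features had opposite signs on 2 of the 7 arrays where both gave a value, and the largest gap was 4.03. Feature 30478 alone, the one with a value on all 8 arrays, gave -2.41 at day -14, -2.69 at day 7 and -0.12 for the days in diet M.

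PCNA is the sliding clamp that tethers the replicative polymerases to DNA. On the day -14 diet arrays it was at 0.07 and -0.01, and on the day 7 diet arrays at 0.05 and 0.21. These 4 values are near 0, although PCNA had the brightest spots. The estimates were 0.06 ± 0.26 at day -14 and 0.10 ± 0.26 at day 7. The day arrays gave 0.19 and -0.48 in diet M and 0.12 and -0.40 in diet S, with estimates of -0.12 ± 0.26 and -0.16 ± 0.26. Within the average its features had both signs on 6 of 8 arrays, with gaps of up to 1.42. On the second day 7 diet array feature 12769, the brightest, was at -0.56 and the other two at 0.31 and 0.87.

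CCNB2 encodes cyclin B2, a partner of the CDK1 kinase that drives entry into mitosis. On the day -14 diet arrays it was at -0.88 and -1.07, and on the day 7 diet arrays at -0.91 and -1.26. The 4 values span a narrow range below 0. The estimates were -0.63 ± 0.38 at day -14 and -1.43 ± 0.38 at day 7, the second 2.69-fold lower in diet M. The day -14 estimate was -0.39 without the first day -14 array and -0.35 without the second. On the day 7 arrays the recovered whole numbers of its 1 feature were 51 over 26 for cow 7944 over cow 7979 and 12 over 29 for cow 7977 over cow 8041, so the channel of diet S was the brighter one on both, with the dyes exchanged.

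For the days, CCNB2 was at -0.35 and -0.03 in diet M and at 1.82 and 0.78 in diet S. The arrays of the 2 diets do not overlap, and the share of all rows with such a gap was not counted. The estimates were 0.16 ± 0.38 in diet M and 0.95 ± 0.38 in diet S (0.36 without its first array), and the interaction was -0.80 ± 0.44. The day 7 diet value and the diet S day value share the day 7 group of diet S.

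TPX2 binds spindle microtubules and activates the Aurora A kinase. On the day -14 diet arrays it was at -1.40 and -0.79, and on the day 7 diet arrays at -0.54 and -2.60. All 4 are below 0, and the array with cow 8041 is the lowest by far. The estimates were -1.04 ± 0.44 at day -14 and -1.63 ± 0.44 at day 7, the second 3.09-fold lower in diet M. Without both arrays of cow 8041 the day 7 estimate was -0.995, and without the second day 7 array alone it was -1.06.

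The TPX2 features were at -2.01, -3.98 and -1.81 on that array, so they point the same way. The feature furthest from 0 had recovered whole numbers of 1 over 16. The brightest feature, 25711, had 79 over 345 there. Used alone it gave -0.65 ± 0.36 at day -14 and -1.09 ± 0.36 at day 7. On the first day 7 array this bright feature was at 0.16 and the dimmer ones at -1.06 and -0.71, one of 2 arrays where TPX2 features had both signs. The days were at 0.51 and -0.49 in diet M and at 0.70 and 0.74 in diet S, with estimates of 0.07 ± 0.44 and 0.66 ± 0.44.

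BUB1 is a kinase of the spindle checkpoint, which delays chromosome separation until every kinetochore is attached. On the day -14 diet arrays it was at -1.36 and -2.83, and on the day 7 diet arrays at -1.27 and -0.22. These are all below 0 but far apart. The estimates were -1.98 ± 0.58 at day -14, 3.93-fold lower in diet M, and -0.87 ± 0.58 at day 7. These SEs are the highest among the 6 genes.

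BUB1 also had the dimmest spots. On the second day -14 array its features were at -4.21, -0.59 and -3.69, from whole numbers of 28 over 1, 16 over 9 and 14 over 1 with the diet S channel on top. Without this array the day -14 estimate was -1.32. In diet M the days were at 0.14 and 2.77. The value of 2.77 came from 1 feature with whole numbers of 1 over 2, a deposited ratio of 1.00 in the same direction, so most of it was added by the brightness correction on that array. The estimate for the days in diet M, 1.57 ± 0.58, was 0.69 without that array. In diet S the days were at 0.57 and 0.59, with an estimate of 0.46 ± 0.58. The first of these averages features at 3.21, -0.47 and -1.03, the largest gap between BUB1 features (4.23), and with the median over features the estimate was -0.073. BUB1 features had both signs on 3 of the 7 arrays where several gave a value. The day 7 diet estimate was -0.55 without the first day 7 array and -1.36 without the second.

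CDC20 activates the anaphase-promoting complex, which triggers the separation of sister chromatids. On the day -14 diet arrays it was at -1.52 and -0.15, and on the day 7 diet arrays at 0.61 and -0.94. The day 7 arrays point in opposite directions. The estimates were -0.41 ± 0.41 at day -14 and -0.59 ± 0.41 at day 7. The first was -0.034 without the first day -14 array and -0.15 without the second, and the day 7 estimate was -1.04 without the first day 7 array. For the days it was at -0.35 and 1.23 in diet M and at 1.28 and 1.65 in diet S, with estimates of 0.86 ± 0.41 and 1.04 ± 0.41. Without the first array of diet S the second estimate was 0.40. The value of -0.94 came from whole numbers of 1 over 2, which may be a reduced form of a larger pair.

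For the days, 2 of the 6 genes (BUB1 and POLE2) were above 0 on both arrays of diet M, where 23.1% of all rows were. In diet S 4 of the 6 (TPX2, CCNB2, BUB1 and CDC20) were above 0 on both, where 18.9% of all rows were. The median over the 6 genes was 0.51 in diet M and 0.56 in diet S, beside 0.02 and -0.00 over all rows. With the values as deposited, without the brightness correction, the median in diet M was -0.0053, where the median over all rows was -0.31. The interaction had a median of -0.07, and its estimates ran from -0.80 for CCNB2 to 1.11 ± 0.67 for BUB1.

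Just below the rule's limit of 6 arrays lay 4 features that were not used. They were 1 of TPX2 with a value on 5 arrays, 1 of CCNB2 on 4 and 2 of CDC20 on 4 and 2. On the first day -14 diet array the unused features of TPX2, CCNB2 and CDC20 were at 0.90, 1.43 and 2.20, with a second CDC20 feature at -0.81. The first 3 are opposite in sign to the used features of the same genes on the same array, and their spots had a brightness of 10.7, 6.24 and 2.65. Just inside the limit, the dimmest BUB1 feature had a value on 6 arrays and the second POLE2 feature on 7.

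Across the 8 arrays the genes other than PCNA varied in the same direction as each other. Pearson's r ran from 0.34 for TPX2 with BUB1 to 0.85 for BUB1 with POLE2 over the 10 pairs without PCNA. It ran from -0.75 to -0.14 over the 5 pairs with PCNA. These are descriptions over 8 points that share cows, arrays and dyes. The values were taken as Cy5 over Cy3, so a dye effect common to the genes enters r. Since the genes were chosen with the diet contrasts known, nothing is read from these correlations.

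Among 5473 other genes with a value on all 8 arrays and a brightness of at least 64, the one most like the mean of the 6 genes was EIF5A, a translation factor (r = 0.97 over the 8 arrays). STOML2, a protein of the inner mitochondrial membrane, followed at 0.96, then RPS27L at 0.96, the mitochondrial ribosomal protein MRPS34 at 0.95 and the chromatin remodeller subunit SMARCB1 at 0.95. COX7B and TPI1 were also at 0.95, and SUCLG1, ECI1 and MRPL14 at 0.94. None of these 10 is on the replication or mitosis lists below. At most 20 genes of the first list and 11 of the second were among the 5473, so nothing is read from that absence. EIF5A was at -0.83 for the diets at day -14 and -0.77 at day 7.

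The rest of both pathways was read from lists of 54 replication and 58 mitosis genes, drawn up with earlier results of these data known. Without the 6 genes above, 41 replication genes had a row. At day -14, 35 of them had an estimate below 0, with a median of -0.67, and at day 7 30 had, with a median of -0.88. The estimates above 0 numbered 6 at day -14, up to 2.03, and 11 at day 7, up to 2.40. None passed the test at either day, beside 0% of all rows. At an unadjusted p under 0.05, 3 were negative and 1 positive at day -14, where 3.63% of all rows were negative and 2.32% positive. At day 7, 17 were negative and 0 positive, where 10.3% of all rows were negative and 12.8% positive. The 2 direct arrays differed at day 7: the list's median, PCNA and POLE2 included, was -0.31 on the first array and -1.31 on the array with cow 8041. At day -14 it was -0.75 and -0.64.

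The replication genes with the smallest p at day 7 by the fixed rule were LIG1, UHRF1, FEN1 and RRM2. LIG1, the ligase that joins Okazaki fragments, was at -1.21 ± 0.43 at day -14 and -1.72 ± 0.43 at day 7 (limma adjusted p = 0.132). With features of at least 64 units only, LIG1 was at -0.81 ± 0.44 and -0.99 ± 0.44. UHRF1, which keeps DNA methylation on the copied strand, was at -0.83 ± 0.40 and -1.47 ± 0.40 from spots at 18.8 units. FEN1, the nuclease that trims those fragments, was at -0.93 ± 0.42 and -1.48 ± 0.42, and its spots were bright at 301 units. RRM2, the small subunit of ribonucleotide reductase, was at -0.80 ± 0.41 and -1.44 ± 0.41.

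MCM2 itself had no feature, but all 5 of its other partners in the replicative helicase ring did. MCM3, also named by the rule, was at -1.10 ± 0.40 at day -14 and -1.17 ± 0.40 at day 7. The others were looked up after their values were seen. MCM4 was at -0.76 ± 0.34 and -1.15 ± 0.34, MCM5 at -0.68 ± 0.41 and -0.92 ± 0.41. MCM6 was at -0.90 ± 0.56 and -0.89 ± 0.56, and MCM7, at 852 units of brightness, at -0.67 ± 0.35 and -0.92 ± 0.35. All 10 estimates are below 0, none passed the test, and their spots were brighter than those of POLE2 or BUB1.

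Of the mitosis genes, 42 had a row beside the 4 described above. At day -14, 36 of them had an estimate below 0, with a median of -0.71, and at day 7 33 had, with a median of -0.77. The estimates above 0 numbered 6 at day -14, up to 0.56, and 9 at day 7, up to 0.86. None passed the test. At an unadjusted p under 0.05, 7 were negative and 0 positive at day -14 (all rows 3.63% and 2.32%), and 12 were negative and 1 positive at day 7 (all rows 10.3% and 12.8%). The full list's medians on the direct arrays were -1.08 and -0.81 at day -14, and -0.10 and -0.94 at day 7, the second with cow 8041. The median over all rows was -0.06 on the first day 7 array, so the list lay close to it there.

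AURKA, the Aurora A kinase that TPX2 activates, was at -0.30 ± 0.35 at day -14 and -1.33 ± 0.35 at day 7, from spots at 27 units. CCNB1, the other B-type cyclin, was at -0.89 ± 0.34 and -1.49 ± 0.43 from spots at 15.7 units, with no value on the second day 7 array. NCAPG, a condensin subunit with spots at 162 units, was at -1.47 ± 0.59 and -1.98 ± 0.59. MELK, a kinase of dividing cells, was at -2.34 ± 0.52 and -2.16 ± 0.52 from spots at 10.2 units. It had a value on 6 arrays and on neither second diet array. BIRC5, the inhibitor of apoptosis survivin, was at -1.84 ± 0.31 at day -14 and 0.15 ± 0.39 at day 7. Its spots were at 6.63 units, and it had no value on the second day 7 array. None of these passed the test, and TOP2A and MKI67 had no row.

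**Figure D3:**
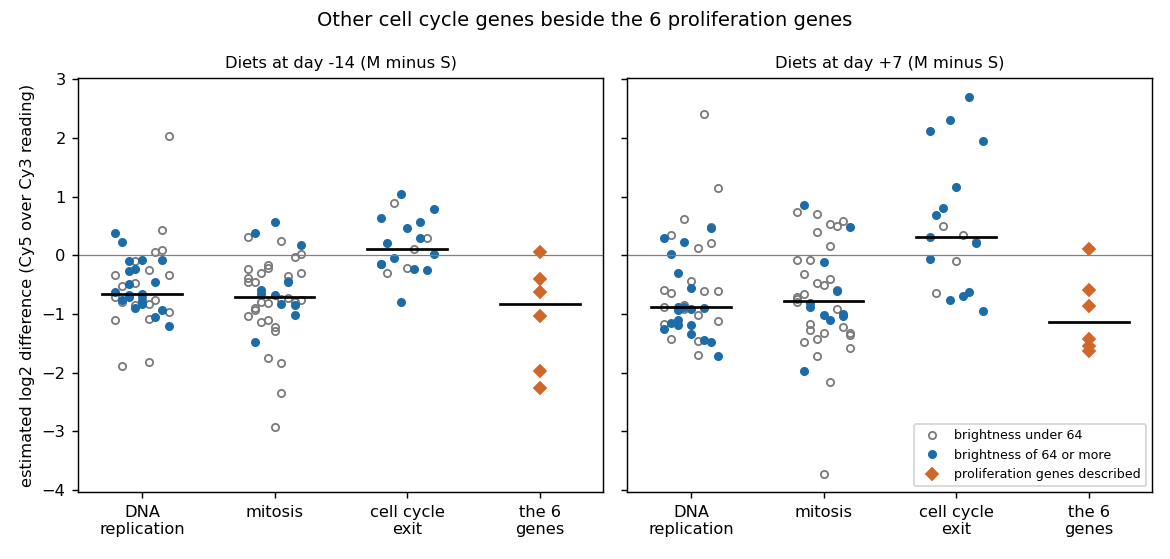
Estimates of the replication, mitosis and cell cycle exit genes for the diets at day -14 and day 7 (log2, M minus S), one point for each gene with a row and the list median as a line. The medians of the replication and mitosis genes without the 6 described genes lie between -0.88 and -0.67, and those of the exit genes at 0.11 and 0.32.

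Among the genes whose features had a median brightness of at least 64 units, 20 replication genes had medians of -0.65 at day -14 and -0.92 at day 7, and 11 mitosis genes had -0.67 and -0.88. The day 7 values differed between the direct arrays. The bright replication genes were at -0.31 on the first array and -1.74 on the array with cow 8041, and the bright mitosis genes at 0.22 and -1.40. Of these 11 mitosis genes, 3 were below 0 on both, where 28.2% of all rows of any brightness were. At day 7, 4 of the 20 replication estimates were above 0, the highest 0.47 for CDC45. Of the 11 mitosis estimates 2 were, the highest 0.86 for PLK1. Of the 6 described genes only TPX2 and PCNA had a feature that bright.

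The list of genes that hold cells out of the cycle did not share that direction. Of 19 genes with a row, 11 had an estimate above 0 at day -14 (median 0.11) and 12 at day 7 (median 0.32). CDKN2C, an inhibitor of the G1 kinases, was below 0 on all 4 diet arrays, at -0.80 ± 0.29 and -0.76 ± 0.29. The stress-induced genes GADD45B, GADD45A and BTG2 had day 7 estimates of 2.12 ± 0.31, 1.95 ± 0.41 and 2.31 ± 0.53, and MXD1, an antagonist of MYC that is also a neutrophil marker, 2.70 ± 0.41. Their limma adjusted p was 0.121 to 0.127. CDKN1C, another kinase inhibitor, was at 0.90 ± 0.30 and 0.49 ± 0.38, with no value on the second day 7 array.

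The day 7 test depended on how dim a spot was admitted. Among 9661 rows from features of at least 64 units, 325 passed limma's adjusted p of 0.05, which is 3.36% of them, 293 above 0 and 32 below. Of the exit genes 4 of 17 passed, each higher in diet M: GADD45B (2.12 ± 0.28, limma adjusted p = 0.0364), MXD1 (2.40 ± 0.36), BTG2 (2.10 ± 0.41) and GADD45A (1.95 ± 0.38). Of the replication genes 1 of 32 passed, the primase subunit PRIM2, lower in diet M at -1.55 ± 0.33 (limma adjusted p = 0.0488). It was named after its value was seen. Of the mitosis genes 0 of 17 passed, and TPX2 (adjusted p = 0.0901) and PCNA (0.764) did not. The 325 rows dropped to 0 without the second day 7 array, and to 0 without both arrays of cow 8041. They also dropped to 0 without either array of diet S or the first of diet M, to 1 without either day -14 diet array and to 34 without the second of diet M, while without the first day 7 array there were 573.

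Between the days, the list medians lay closer to 0 than between the diets. Replication genes had medians of -0.09 in diet M, with 17 of 41 estimates above 0, and 0.21 in diet S, with 29 above 0. Mitosis genes had medians of 0.17 in diet M, with 26 of 42 above 0, and 0.30 in diet S, with 29 above 0. On the 2 arrays of diet S the full replication list was at -0.22 and 0.84, and the full mitosis list at 0.24 and 0.71. None passed the test in either diet.

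Markers of other cells also had log ratios away from 0 between the diets. B cell markers were below 0 in 9 of 10 genes at both days, with medians of -1.01 and -1.34. POU2AF1 was at -1.34 ± 0.55 and -1.95 ± 0.55, and EBF1 at -1.53 ± 0.74 and -2.08 ± 0.74. On the direct arrays the B cell medians were -0.34 and -1.79 at day -14 and 0.64 and -2.75 at day 7. On the first day 7 array the B cell median was thus above 0, where the 6 genes had a median of -0.72. T cell and NK markers lay the other way, above 0 in 16 and 15 of 19 genes (medians 0.66 and 0.44), with ZAP70 at 1.72 ± 0.38 and 1.45 ± 0.38 and GZMB at 1.97 ± 0.59 and 2.17 ± 0.59. Plasma cell markers were above 0 in 6 of 7 genes at both days (medians 1.00 and 0.63), with PRDM1 at 1.14 ± 0.38 and 2.08 ± 0.38 and DERL3 at -0.90 ± 0.42 and -0.85 ± 0.42. The share of these cells in the values of the proliferation genes was not tested.

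Markers of the stages of neutrophil maturation were set beside these values. Primary granule and early precursor markers had a row for 7 of 12 genes, without PRTN3, AZU1, CTSG, CD34 and RUNX1. They were above 0 in 5 of 7 genes at day -14 (median 0.22) and in 3 of 7 at day 7 (median -0.44). ELANE, neutrophil elastase, was at 0.71 ± 0.80 and 2.28 ± 0.80, and GFI1, a regulator of granulocyte precursors, at 0.09 ± 0.35 and 1.64 ± 0.35. Both are above 0 at day 7, while 4 of the 7 genes of the list were below 0. The direct array medians of this list were 0.62 and -0.86 at day -14, and -0.06 and 0.64 at day 7.

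Later stages lay mostly above 0. Secondary and tertiary granule markers were above 0 in 14 of 16 genes at day -14 (median 0.95) and 11 of 16 at day 7 (median 0.47), with LCN2 at -1.08 ± 0.50 and -2.48 ± 0.50 and CHI3L1 at 0.95 ± 0.55 and 2.00 ± 0.55. Their day 7 arrays were far apart, at -1.78 and 2.68. Mature neutrophil markers were above 0 in 9 of 11 genes (median 0.64) and 11 of 11 (median 2.10), with the interleukin 8 receptor CXCR1 at 0.90 ± 0.58 and 3.0 ± 0.58. Their direct array medians were 0.46 and 0.88, then 0.67 and 2.52. None of the marker genes passed the test over all 15700 rows. Among features of at least 64 units 5 more marker genes beside MXD1 passed at day 7 and were named after their values were seen. CXCR1 (2.77 ± 0.48), FCGR3A (2.16 ± 0.38), CD68 of monocytes (2.54 ± 0.43) and PRDM1 (1.87 ± 0.33) were higher in diet M, and LCN2 (-2.46 ± 0.53) was lower. Like all calls of that setting, they were lost without the array with cow 8041 at day 7. Their part in the values of the proliferation genes was not tested.

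The remaining marker lists cover other blood cells. Monocyte markers were above 0 in 9 of 9 genes at both days (medians 1.26 and 0.87), eosinophil and basophil markers in 4 of 4 (1.60 and 2.57), red cell precursor markers in 5 of 6 (0.34 and 0.63) and platelet markers in 2 of 2 (0.64 and 1.16). At day 7 the direct array medians of the monocyte markers were -0.39 and 3.0, and those of the eosinophil and basophil markers -0.40 and 6.22, the second with cow 8041 each time.

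**Figure D4:**
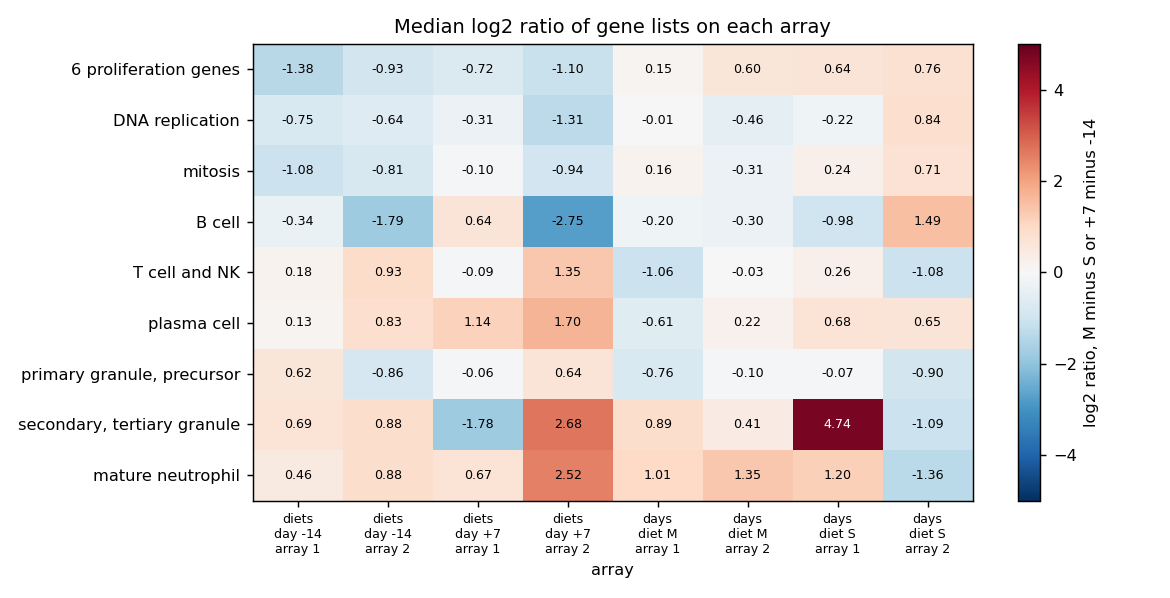
Median log2 ratio of the described genes and of the replication, mitosis, lymphocyte, plasma cell and neutrophil stage lists on each of the 8 arrays, after the brightness correction. The exit, monocyte, eosinophil and basophil, red cell precursor and platelet lists are not drawn. The replication and mitosis rows are below 0 on all 4 diet arrays, between -1.31 and -0.10, while the B cell row changes sign between the day 7 arrays (0.64 and -2.75). The mitosis value of -0.10, on the first day 7 array, stands beside a median of -0.06 over all rows there.

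Leaving out the 6 described genes, 19 of 35 replication genes with a value on each of the 4 diet arrays were below 0 on all of them, as were 9 of 33 mitosis genes and 1 of 18 exit genes, beside 17.7% of all rows. The replication genes among them included MCM3, MCM4, MCM7, PRIM2, FEN1, LIG1, RRM1, RRM2, TYMS and UHRF1. These counts draw on lists made with results of these arrays known and describe these arrays only.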

How the data were processed

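The deposited values are un-normalised log2 ratios, 1 channel over the other (97.8 to 98.5% of values were ratios of whole numbers of at most 10000, tolerance 1e-09). Per the labels, 200 ng of RNA per sample was labelled; for the scanner, image software and slide, nothing is given in the sources used here. Symbols of 30788 of 43803 features came from the platform annotation and were brought up to date with RefSeq names (assembly ARS-UCD2.0, names only); 13015 had none here. A loess curve of log ratio against median feature brightness (span 0.4, degree 1, 4 iterations) was subtracted from each array. Features with a value on at least 6 of 8 arrays (24620) were averaged by symbol, which left 15700 rows. Limma 3.58.1 (R 4.3.3) fitted a loop model with a dye term (4 residual degrees of freedom, prior 3), two-sided, with Benjamini-Hochberg adjustment over all rows. It was tested on simulated data. Its p-values reflect only how these 8 arrays vary.

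The 8 genes and all lists were chosen with earlier results of these data known. Genes named by rule were the 8 genes, the 4 and 2 smallest p at day 7 and day -14 in each pathway list, the 2 smallest p at day 7 in each marker list, and the 10 genes most like the mean of the 6 with a feature. Outside the rule, S100A12, S100A8, CD79A and MS4A1 were named for their brightness. Others, among them MCM4 to MCM7, PRIM2, FCGR3A, CDC45 and PLK1, were named after their values were seen. Alternatives covered the correction, missing values, brightness, averaging, dye term, scaling, a replicate block for the cow, and arrays left out.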

Additional observations from a re-analysis of the deposited data

Results flagged for a closer look

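CCNB2 was below 0 for the days on both arrays of diet M (-0.35 and -0.03) and above 0 on both arrays of diet S (1.82 and 0.78), so every array of each diet pointed opposite to those of the other. Over all rows, 3619 of 14731 were below 0 on both arrays of diet M. In diet S, 2876 of 15177 were above 0 on both. The share of rows with both was not counted, so nothing is read from this pattern. The interaction estimate was -0.80 ± 0.44 log2 units, and in limma 0 of 15700 rows passed an adjusted p of 0.05 for the interaction (1009 at an unadjusted p under 0.05). The estimate ran from -1.09 to -0.40 as single arrays were left out, the latter without the first array of diet S, and was -0.45 without both arrays of cow 8041. The diet M values compare days within 1 cow each and the diet S values between different cows. One of the values, -0.03, is close to 0. As deposited, before the brightness correction, the values were -0.51 and -0.75 in diet M and 1.29 and 0.57 in diet S.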

How the results depend on the processing

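Of 460 alternative estimates of the genes, 372 differed from the reported value (tolerance 1e-05); the others, including genes with 1 feature under another average, did not move. Of the 372, 349 kept their sign and 343 lay within 1 SE. With features of at least 64 units (TPX2 and PCNA only) the medians were -0.29 and -0.49 for the diets at day -14 and day 7, and -0.069 and 0.13 for the days in diets M and S. The median for the days in diet M was -0.0053 as deposited and 0.11 with values on all 8 arrays. For the diets at day 7, 1 row passed with values on all 8 arrays, 325 with that brightness minimum and 4 with the cow as a replicate block (estimated correlation 0.2). That fit used 13150 rows complete on all 8 arrays, and without the block the same rows also gave 4; no other comparison gave a call in either fit. With the brightness minimum and each array left out in turn, 0 to 573 rows passed (34 without the second array of diet M), and 0 without both arrays of cow 8041; this setting and the unblocked fit of those rows were chosen after seeing the data. As each array was left out, the medians ran from -1.02 to -0.66 and from -1.28 to -0.90 for the diets at day -14 and day 7, from 0.33 to 0.79 and from 0.39 to 0.67 for the days in diets M and S, and from -0.25 to 0.17 for the interaction, with 0 rows passing at all brightnesses. The causes were not tested. The spots of POLE2 and BUB1 had the lowest signal, with feature medians of at most 13.0 units. As deposited, the median of all rows lay at -0.31 and -0.25 for the days in diets M and S, and day values are relative to that shift.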
